A study of Arabidopsis thaliana with 29 samples.

Results

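The transition from the zygote to the octant embryo was described in Arabidopsis thaliana by setting the 4 octant libraries of the series against its 3 zygote libraries over all genes, with the direction of the cross as a covariate. Embryos were hybrids of the wild-type strains Col-0 and Tsu-1, made in both directions. The octant group held 2 libraries with Col-0 as the mother and Tsu-1 as the father (Col-0 x Tsu-1) and 2 of the reverse cross (Tsu-1 x Col-0). The zygote group held 1 library of Col-0 x Tsu-1, which joins 3 technical libraries of the same RNA, and 2 libraries of Tsu-1 x Col-0. Embryos were dissected by hand and washed free of maternal tissue, and their polyA RNA was amplified before library preparation, per the labels. Of 33341 genes in the table, 21923 had enough reads in these 7 of 29 libraries to be tested, and all 21923 are described here. How many embryos went into a library, and their age in hours, is not given in the sources used here.

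The zygote of Arabidopsis is the fertilised egg cell. It elongates and divides into a small apical cell, which founds most of the embryo, and a basal cell, which forms the suspensor. By the octant stage the apical cell has divided into a small ball of cells, the embryo proper, and the divisions that separate the protoderm follow. Cyclins and cyclin-dependent kinases drive these divisions, the WUSCHEL-related homeobox (WOX) genes mark the apical and basal lineages, and the embryo lies within endosperm and the seed coat, which are separate tissues with RNA of their own.

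Of the 21923 genes tested, 3434 rose in octants (15.7%) and 3720 fell (17.0%), so that 32.6% changed at an adjusted p under 0.05 in edgeR's quasi-likelihood test with Benjamini-Hochberg adjustment. Levels are given throughout as CPM, the reads of a gene scaled by the library total times its TMM factor. Changes are given as log2 fold changes of octant over zygote. The TMM factors were 1.17 to 1.22 in octants and 0.577 to 0.93 in zygotes. All genes tested therefore summed to 817000 to 855000 CPM in octants and 1080000 to 1730000 CPM in zygotes. Levels and list sums of the stages are thus not shares of a common total. The median change was -0.04 over all genes tested, 1.97 over the risen genes and -1.89 over the fallen ones. More than a 2-fold change was seen in 3280 of the risen and 3547 of the fallen genes, and more than a 4-fold change in 1671 and 1678. Among the risen genes, 3215 had every octant library above every zygote library, and 3202 of the fallen genes had every octant library below, beside 21.1% and 19.3% of all genes tested whose libraries were apart in that direction. In such bulk RNA, fewer cells of a type and less RNA per cell cannot be told apart.

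The libraries held 8741902 to 11502485 reads in octants and 9996589 to 60410492 in zygotes. Octant libraries were alike (Pearson r of log2 CPM across genes 0.929 to 0.982). The Tsu-1 x Col-0 zygote libraries were alike at 0.962, but the Col-0 x Tsu-1 zygote library stood apart from them at 0.762 and 0.731, and was closer to each octant library (0.776 to 0.824) than to either. The change was accordingly compared between crosses for every gene. Of 11191 genes whose mean log2 CPM was 3 or more, 67.6% moved in the same direction in both crosses. The size of the change differed between crosses for 7869 genes (35.9% of those tested, edgeR stage by cross term), among them 927 risen and 881 fallen genes. All 3434 risen genes and 3650 of 3720 fallen genes moved the same way in both crosses. The test fits a change shared by the crosses, so genes on which they disagree seldom pass, and these counts are no measure of agreement. Without the Col-0 x Tsu-1 zygote library 12698 genes passed, while 2899 and 2878 passed without the first or second Tsu-1 x Col-0 octant library and 4653 without the first Tsu-1 x Col-0 zygote library.

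**Figure D1:**
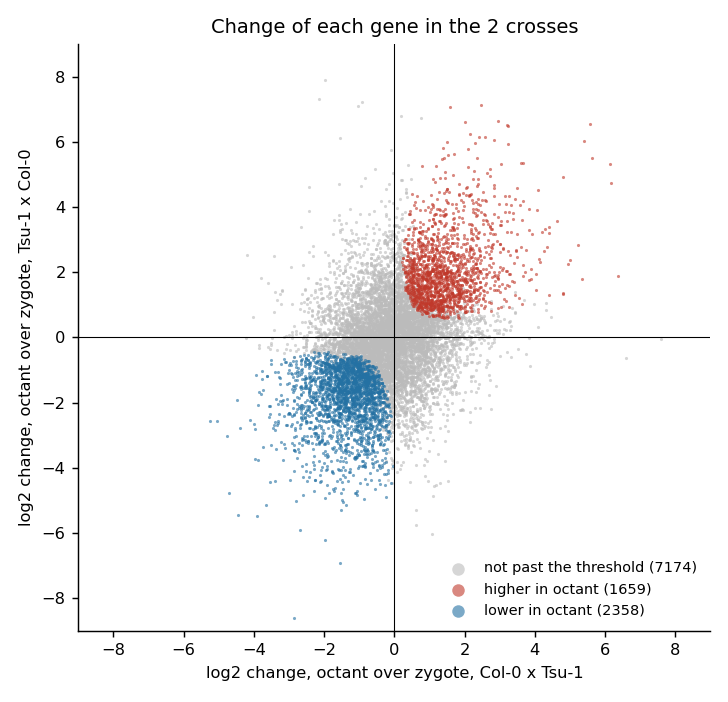
Change of each gene in each cross. The axes give the log2 change of octant over zygote in the 2 crosses, 1 point per gene whose mean log2 CPM was 3 or more (11191 genes); the colours mark the 1659 risen, 2358 fallen and 7174 other genes. Risen and fallen genes lie in opposite quadrants, which follows largely from a test of a change shared by the crosses. Many genes that were not called lie where the crosses disagree.

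The change differed with transcript length. The median transcript was 1818 bases for risen genes and 1422.5 for fallen genes, against 1643 for all genes tested. In Tsu-1 x Col-0 the median change was -0.68 for the 184 genes with transcripts of up to 500 bases, -1.5 for the 443 genes with transcripts of 500 to 750 bases and -1.13 for the 1017 genes of 750 to 1000 bases, and it was 0.18 for the 455 genes over 4000 bases. In Col-0 x Tsu-1 the same classes had medians of 0.63, -0.04, -0.07 and -0.28. The part of length in the results was not tested. With an offset for length fitted per library 3969 genes were higher and 3114 lower in octants, and 6238 calls were shared with those above.

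**Figure D2:**
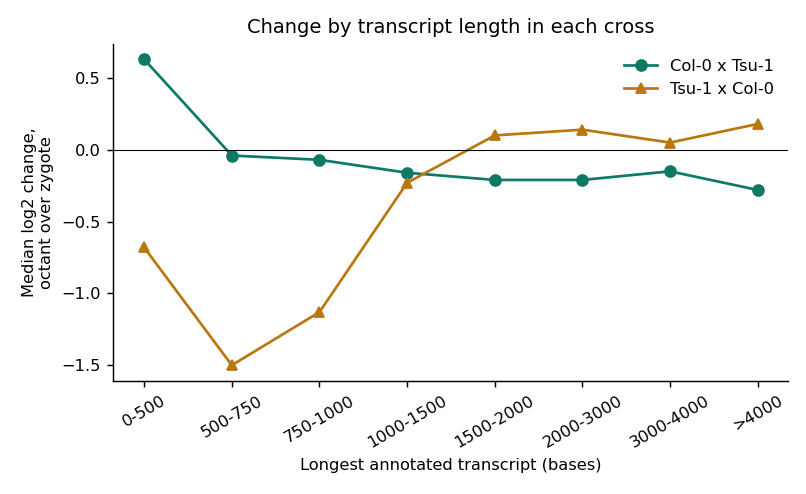
Median change by transcript length. The vertical axis is the median log2 change of octant over zygote in each cross and the horizontal axis the class of transcript length in bases, for genes whose mean log2 CPM was 3 or more. The Tsu-1 x Col-0 line is low for short transcripts and near 0 for long ones, and the Col-0 x Tsu-1 line is at 0.63 for the shortest class and between -0.04 and -0.28 for the others.

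Genes of the mitotic cell cycle rose. Of 34 cyclins and mitotic regulators tested, 23 rose and 0 fell (1 was lower at an unadjusted p under 0.05 and 1 by DESeq2), with a median change of 1.42. The B-type cyclin CYCB1;4 stood at 36.7, 38.6, 33.8 and 32.3 CPM in the octant libraries, given here and below with both Col-0 x Tsu-1 libraries before both Tsu-1 x Col-0 libraries, against 15.4, 1.76 and 4.27 CPM in the zygote libraries, of which the Col-0 x Tsu-1 one is given before the others. Every octant library was above every zygote library, and the Col-0 x Tsu-1 zygote was the highest of its group (log2 fold change 2.50 ± 0.55 SE, edgeR adjusted p = 0.0145, lost without the second Tsu-1 x Col-0 zygote library). CDKB2;1, a plant-specific kinase that acts at the entry into mitosis, had 18.6, 21.5, 22.6 and 20.7 CPM in octants, against 2.82, 2.81 and 7.0 CPM in zygotes. The octant libraries lay close together and all above the zygotes (2.42 ± 0.40, edgeR adjusted p = 0.00654).

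CYCA2;3, an A-type cyclin, had 14.4, 19.6, 21.1 and 18.6 CPM in octants, against 2.67, 5.01 and 5.25 CPM in zygotes, again without overlap (2.23 ± 0.31, edgeR adjusted p = 0.00437). CDKB2;2 rose by 1.36 ± 0.32, a call lost without the first Tsu-1 x Col-0 octant library. Not every mitotic gene passed the test. CYCB1;1, a common reporter of dividing cells, had 40.2, 35.5, 30.8 and 27.1 CPM in octants, against 36.3, 9.09 and 15.4 CPM in zygotes, so that the Col-0 x Tsu-1 zygote lay within the octant range (0.74 ± 0.35, edgeR adjusted p = 0.13). KNOLLE (SYP111), the syntaxin of the cell plate, had 67.6, 66.6, 64.6 and 55.9 CPM in octants, against 70.4, 72.9 and 49.7 CPM in zygotes, with overlapping groups (-0.04 ± 0.26, edgeR adjusted p = 0.91). The number of risen members of the list ran from 10 without the first Tsu-1 x Col-0 octant library to 26 without the Col-0 x Tsu-1 zygote library, when 2 were fallen.

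Genes that act before mitosis were mixed. Of 14 G1 cyclins and E2F genes, 5 rose and 0 fell (0 were lower at an unadjusted p under 0.05 or by DESeq2), with a median of 1.17. CYCD3;2, a D-type cyclin, had 34.3, 28.1, 45.8 and 54.3 CPM in octants, against 12.7, 9.67 and 19.6 CPM in zygotes, and the groups were apart (1.58 ± 0.33, edgeR adjusted p = 0.0123, lost without the second Tsu-1 x Col-0 octant library). Of 30 genes of DNA replication, 12 rose and 3 fell, with a median of 0.94 (0.19 in Col-0 x Tsu-1 and 1.04 in Tsu-1 x Col-0). CDT1B, which licenses replication origins, had 20.8, 23.7, 29.3 and 28.7 CPM in octants, against 4.01, 9.62 and 5.03 CPM in zygotes. Its groups did not overlap (2.17 ± 0.33, edgeR adjusted p = 0.00531).

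The paralogs of the sliding clamp of DNA polymerase moved in opposite directions. PCNA1 had 139, 153, 133 and 198 CPM in octants, against 55.2, 25.2 and 40.6 CPM in zygotes, without overlap (1.95 ± 0.36, edgeR adjusted p = 0.00866). PCNA2 had 46.0, 39.5, 44.0 and 50.8 CPM in octants, against 60.6, 241 and 196 CPM in zygotes. PCNA2 was lower in every octant library, least so in Col-0 x Tsu-1 (-1.58 ± 0.42, edgeR adjusted p = 0.0259), and this call was lost without any 1 of 5 libraries: the second Col-0 x Tsu-1 octant, either Tsu-1 x Col-0 octant or either Tsu-1 x Col-0 zygote. The small subunit gene of ribonucleotide reductase TSO2, which makes deoxynucleotides, also fell: it had 78.7, 93.1, 88.9 and 83.6 CPM in octants, against 400, 769 and 296 CPM in zygotes. All 3 zygote libraries were far above the octants (-2.47 ± 0.40, edgeR adjusted p = 0.0062). CDC45, a part of the replicative helicase, fell by 2.16, a call lost without either Tsu-1 x Col-0 octant library, and MCM2, another part, had 17.9, 17.7, 18.0 and 20.3 CPM in octants, against 27.0, 18.6 and 17.3 CPM in zygotes (-0.20 ± 0.26, edgeR adjusted p = 0.581). Leaving out 1 library moved the list's risen count between 6, without either Tsu-1 x Col-0 octant library, and 15, without the Col-0 x Tsu-1 zygote library, and G1 counts between 1, without the second Tsu-1 x Col-0 octant library, and 11, without the Col-0 x Tsu-1 zygote library, when 1 was fallen.

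Kinesins, the motors of the spindle and the phragmoplast among other microtubule arrays, rose more often than they fell: of 58 tested, 19 rose and 5 fell (median 0.82). The kinesin AT1G18550 had 22.4, 11.9, 19.8 and 17.1 CPM in octants, against 4.37, 4.57 and 1.53 CPM in zygotes, without overlap (2.31 ± 0.46, edgeR adjusted p = 0.0101). Core and linker histones did not share this pattern, with 1 of 40 risen and 3 fallen (median -0.55, 0.46 in Col-0 x Tsu-1 and -1.03 in Tsu-1 x Col-0). Their median transcript was 844 bases, in a length class that was low in Tsu-1 x Col-0. HTA9, an H2A histone, had 298, 297, 321 and 288 CPM in octants, against 570, 2520 and 1270 CPM in zygotes (-2.02 ± 0.51, edgeR adjusted p = 0.022, lost without either Tsu-1 x Col-0 octant library). Kinesin counts ran from 10 risen, without the second Tsu-1 x Col-0 octant library, to 29, without the Col-0 x Tsu-1 zygote library.

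The sequence before the annotated start of these genes was read from the TAIR10.1 genome, since 2 short elements are known to mark them: the mitosis-specific activator (MSA) core, which MYB3R factors bind, and the E2F site of S-phase genes. Nothing in the deposited files was mapped to these windows. The MSA core was searched as CNAACGG and the E2F site as TTTNNCGC, on both strands, in the 250 bases before the start. The following 4 windows are of risen genes and are shown 5′ to 3′ on the strand of the gene, with the matches in capitals.

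CYCB1;2 (chr5:1861704-1861953, minus strand): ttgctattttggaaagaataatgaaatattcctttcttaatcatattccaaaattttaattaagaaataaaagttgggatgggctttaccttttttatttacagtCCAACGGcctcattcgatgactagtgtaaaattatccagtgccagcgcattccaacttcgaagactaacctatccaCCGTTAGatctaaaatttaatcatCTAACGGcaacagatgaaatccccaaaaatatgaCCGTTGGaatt

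CYCB2;2 (chr4:16901346-16901595, plus strand): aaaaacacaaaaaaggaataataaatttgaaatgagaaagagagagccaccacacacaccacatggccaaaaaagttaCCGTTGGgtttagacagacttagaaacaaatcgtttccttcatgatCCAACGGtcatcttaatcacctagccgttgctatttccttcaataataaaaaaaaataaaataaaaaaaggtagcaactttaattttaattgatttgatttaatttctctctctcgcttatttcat

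MCM6 (chr5:18010668-18010917, minus strand): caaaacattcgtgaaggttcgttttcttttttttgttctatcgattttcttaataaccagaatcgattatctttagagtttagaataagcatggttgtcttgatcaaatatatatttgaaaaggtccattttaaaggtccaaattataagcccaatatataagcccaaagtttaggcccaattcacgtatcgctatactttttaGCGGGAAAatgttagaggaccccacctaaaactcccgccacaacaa

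ORC3 (chr5:5474116-5474365, plus strand): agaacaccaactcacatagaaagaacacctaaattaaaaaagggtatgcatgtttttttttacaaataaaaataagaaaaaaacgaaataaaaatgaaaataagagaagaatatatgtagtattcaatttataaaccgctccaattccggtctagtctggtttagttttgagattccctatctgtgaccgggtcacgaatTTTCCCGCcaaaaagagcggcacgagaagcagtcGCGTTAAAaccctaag

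CYCB1;2 (CYC1BAT in RefSeq) held 4 MSA cores, which begin at -145, -69, -45 and -11 from the start, and CYCB2;2 held 2, at -172 and -126. MCM6 held 1 match to the letters searched for E2F, at -46, and ORC3 held 2, at -50 and -16. These letters leave the 2 middle bases open, so a match need not be a site that E2F binds. These B-type cyclins rose by 1.77 and 2.28 on the log2 scale, and the helicase subunit MCM6 and the origin-recognition subunit ORC3 by 2.61 and 2.11; the calls of CYCB1;2 and ORC3 were lost without either Tsu-1 x Col-0 octant library, and that of CYCB1;2 also without the second Tsu-1 x Col-0 zygote library. The MSA core was in 10 of the 34 windows of the mitotic list (29.4%), in 6 of its 23 risen members (26.1%), and in 4.95% of the 21717 windows of all genes tested. A match to the E2F letters was in 14 of the 30 replication genes (46.7%), in 6 of the 12 risen ones (50.0%), and in 5.93% of all windows. Over all risen genes the shares were 5.49% for MSA and 6.31% for E2F, and over all fallen genes 4.49% and 4.95%. A match describes letters in a window only, and a window without one says nothing of the factor.

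Of 48 genes of embryo patterning tested, 18 rose and 2 fell, with a median change of 1.04. The median was 0.25 in Col-0 x Tsu-1 and 1.48 in Tsu-1 x Col-0, and for 25 genes the change differed between crosses. WOX2, which marks the apical cell and its descendants, had 71.0, 67.1, 77.2 and 98.1 CPM in octants, against 31.9, 9.97 and 17.5 CPM in zygotes. Every octant library was above every zygote library (2.01 ± 0.42, edgeR adjusted p = 0.0122). WOX8, which marks the basal lineage, had 164, 144, 194 and 185 CPM in octants, against 49.6, 72.5 and 43.0 CPM in zygotes, and its groups were likewise apart (1.68 ± 0.31, edgeR adjusted p = 0.00834). Its close relative WOX9 had 63.7, 68.1, 75.1 and 92.8 CPM in octants, against 46.4, 57.3 and 47.9 CPM in zygotes (0.61 ± 0.25, edgeR adjusted p = 0.0984).

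A gene of the leaf polarity pathway was among those with the largest changes of the list. PHB, a homeodomain-leucine zipper factor of the adaxial side, had 22.4, 24.7, 50.0 and 46.0 CPM in octants, against 7.15, 0.879 and 0.985 CPM in zygotes (3.76 ± 0.87, edgeR adjusted p = 0.0164). Its groups did not overlap, octants of Tsu-1 x Col-0 were the highest, and the call was lost without either Tsu-1 x Col-0 zygote library. PIN7, an auxin efflux carrier, had 24.4, 23.7, 38.6 and 38.1 CPM in octants, against 75.1, 21.7 and 16.2 CPM in zygotes, so that its groups overlapped (-0.14 ± 0.54, edgeR adjusted p = 0.853), with a log2 change of -1.64 in Col-0 x Tsu-1 and 1.03 in Tsu-1 x Col-0.

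Regulators of embryo identity differed. FUS3, a B3 factor of seed maturation, had 9.85, 9.66, 25.6 and 43.9 CPM in octants, against 5.17, 5.62 and 2.08 CPM in zygotes (2.18 ± 0.59, edgeR adjusted p = 0.0275, lost without any 1 of the Tsu-1 x Col-0 libraries of either stage). LEC1, the NF-YB subunit that gives embryo identity, had 661, 523, 756 and 1420 CPM in octants, against 308, 683 and 293 CPM in zygotes, with overlap (1.07 ± 0.44, edgeR adjusted p = 0.0961). DRN (ESR1), an AP2 factor of the early embryo, had 50.0, 57.7, 52.1 and 50.7 CPM in octants, against 56.9, 54.3 and 44.1 CPM in zygotes, with overlap (0.00 ± 0.24, edgeR adjusted p = 0.99). ATML1, a homeodomain factor of the epidermis, had 162, 204, 116 and 98.1 CPM in octants, against 302, 699 and 98.5 CPM in zygotes (-1.45 ± 0.65, edgeR adjusted p = 0.119).

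The fallen members were SCR and ACR4. SCR, a GRAS factor of radial patterning, had 17.2, 16.3, 14.2 and 15.1 CPM in octants, against 41.6, 35.0 and 27.1 CPM in zygotes, without overlap (-1.18 ± 0.24, edgeR adjusted p = 0.0111, lost without the first Tsu-1 x Col-0 octant library). ACR4 (CR4), a receptor kinase of the outer cell layer, had 9.57, 7.89, 5.96 and 4.61 CPM in octants, against 11, 19.7 and 22 CPM in zygotes (-1.36 ± 0.41, edgeR adjusted p = 0.0392), a call lost without any 1 of 5 libraries, the first Col-0 x Tsu-1 octant and the Col-0 x Tsu-1 zygote being the exceptions. The list's risen count ran from 7 without the second Tsu-1 x Col-0 octant library to 29 without the Col-0 x Tsu-1 zygote library.

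The subunits of nuclear factor Y, a trimeric factor that binds CCAAT boxes, moved in different directions. NF-YA gives the trimer its sequence specificity, and NF-YB and NF-YC form its histone-like dimer. Of 9 NF-YA genes 4 rose and 0 fell (0 were lower at an unadjusted p under 0.05 or by DESeq2; median 1.43), while of 23 NF-YB and NF-YC genes 2 rose and 9 fell (median -0.62). NF-YA6 had 23.0, 17.9, 46.7 and 68.0 CPM in octants, against 1.66, 3.51 and 3.17 CPM in zygotes (3.90 ± 0.32, edgeR adjusted p = 0.00295). NF-YA5 rose by 2.96 ± 0.40 and NF-YA3 by 2.26 ± 0.35. NF-YB1 had 54.0, 64.9, 66.5 and 61.4 CPM in octants, against 418, 818 and 233 CPM in zygotes (-2.95 ± 0.46, edgeR adjusted p = 0.00553). NF-YC4 had 13.9, 17.7, 11.6 and 16.2 CPM in octants, against 57.5, 55.5 and 86.2 CPM in zygotes (-2.16 ± 0.30, edgeR adjusted p = 0.00434). In all 5 of these genes the groups did not overlap, and their calls held without any 1 library. Fallen NF-YB and NF-YC members ranged from 4, without either Tsu-1 x Col-0 octant library, to 11, without the Col-0 x Tsu-1 zygote library; without that zygote library 7 NF-YA genes were risen and 1 fallen.

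The bZIP, VQ and KH families had more risen than fallen members. Of 59 bZIP factors 19 rose and 3 fell (median 0.80). AHBP-1B, a TGA-type bZIP factor, had 30, 31.3, 40.3 and 56.6 CPM in octants, against 9.44, 2.86 and 4.81 CPM in zygotes (2.81 ± 0.50, edgeR adjusted p = 0.00747), and HY5, the bZIP factor of the light response, had 9.94, 9.52, 6.28 and 7.2 CPM in octants, against 27.9, 31.1 and 38.5 CPM in zygotes (-2.04 ± 0.29, edgeR adjusted p = 0.00471). The groups were apart for both genes, in opposite directions. VQ proteins, many of which bind WRKY factors, had 10 risen and 2 fallen of 22 (median 1.13), with AT1G28280 at 18.6, 16.3, 23.6 and 21.9 CPM in octants, against 5.29, 4.04 and 4.60 CPM in zygotes (2.11 ± 0.29, edgeR adjusted p = 0.00421).

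KH domain proteins, which bind RNA, had 10 risen and 0 fallen of 36 (1 was lower at an unadjusted p under 0.05 and 2 by DESeq2; median 0.83). The KH protein AT4G26480 had 68.4, 78.6, 92.4 and 89.8 CPM in octants, against 18.0, 0.703 and 1.09 CPM in zygotes, and PEP, a KH protein that affects FLC, had 37.1, 35.2, 45.2 and 51.2 CPM in octants, against 14.6, 2.02 and 1.2 CPM in zygotes. Neither gene's groups overlapped, the Col-0 x Tsu-1 zygote was the highest zygote library for both (4.38 ± 1.06, edgeR adjusted p = 0.0188, and 3.21 ± 0.79, edgeR adjusted p = 0.0199), and both calls were lost without either Tsu-1 x Col-0 zygote library. IQD proteins, calmodulin-binding scaffolds on microtubules, had 8 risen and 1 fallen of 29 (median 1.00), and iqd2 rose by 2.89 ± 0.50. With 1 library left out, 5 to 27 bZIP, 4 to 11 VQ and 4 to 21 KH genes were risen; the low ends came without the first Tsu-1 x Col-0 octant library (for KH without either of that group), and the high ends without the Col-0 x Tsu-1 zygote library, when 3 KH genes were fallen.

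Large transcription factor families were split. WRKY factors had 9 risen and 3 fallen of 40, MYB and SANT factors 44 and 26 of 204, bHLH factors 23 and 11 of 101, ERF and AP2 factors 23 and 14 of 113, MADS factors 7 and 4 of 49, and CCCH zinc fingers 22 and 9 of 67. NAC factors had 16 risen and 13 fallen of 60, homeobox factors 14 and 16 of 94, and GRAS factors 3 and 8 of 30. Set against 15.7% risen and 17.0% fallen over all genes tested, the share risen in these 9 families was lowest in GRAS factors and reached 32.8% of CCCH zinc fingers, and the share fallen ran from 7.5% of WRKY factors to 26.7% of GRAS factors.

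Single factors within these families changed strongly. WRKY20 had 58.4, 40.6, 43.5 and 46.0 CPM in octants, against 6.65, 5.01 and 4.81 CPM in zygotes (3.06 ± 0.28, edgeR adjusted p = 0.00313). WRKY17, known as a repressor of basal defence, had 44.6, 30.6, 69.2 and 75.6 CPM in octants, against 5.61, 2.24 and 2.30 CPM in zygotes (3.98 ± 0.55, edgeR adjusted p = 0.00421). Both were far above the zygotes in every octant library. NAM, a NAC factor, had 79.1, 79.8, 120 and 176 CPM in octants, against 27.4, 3.43 and 2.52 CPM in zygotes (3.74 ± 0.94, edgeR adjusted p = 0.0213, lost without the first Tsu-1 x Col-0 octant or either Tsu-1 x Col-0 zygote library), and FLP, a MYB factor that limits stomatal divisions, had 214, 135, 52.6 and 73.7 CPM in octants, against 43.5, 6.41 and 1.86 CPM in zygotes (3.07 ± 0.61, edgeR adjusted p = 0.0101). ILR3, a bHLH factor of iron homeostasis, rose by 1.89 ± 0.35.

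Transcription factors of the same families fell and rose. MYB16, a MIXTA-type factor of cuticle and conical cells, had 6.63, 7.67, 1.91 and 2.12 CPM in octants, against 28.0, 247 and 93.6 CPM in zygotes (-4.98 ± 1.07, edgeR adjusted p = 0.0132, lost without either Tsu-1 x Col-0 octant library). HDG1, a homeodomain factor of the epidermis, had 7.29, 7.53, 5.64 and 4.34 CPM in octants, against 48.1, 38.5 and 27.4 CPM in zygotes (-2.71 ± 0.27, edgeR adjusted p = 0.00325). For both, no octant library reached the lowest zygote. The ERF factor AT5G07580 had 4.93, 5.54, 2.23 and 2.40 CPM in octants, against 55.7, 62.0 and 40.5 CPM in zygotes (-4.04 ± 0.35, edgeR adjusted p = 0.00295). MYB94, a factor of cuticular wax synthesis, rose by 2.25. Among DELLA genes, repressors of gibberellin responses, RGL3 fell by 2.06 and RGL2 rose by 1.06 on the log2 scale, and the RGL2 call was lost without any 1 library other than the first Col-0 x Tsu-1 octant and the Col-0 x Tsu-1 zygote. The GRAS gene SCL13 fell by 1.98.

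The JAZ proteins, which repress jasmonate responses and whose genes jasmonate induces, rose as a family. Of 10 tested 8 rose and 0 fell (1 was lower at an unadjusted p under 0.05 and 1 by DESeq2), with a median change of 2.18. JAZ2 (TIFY10B) had 105, 89.2, 60 and 63.7 CPM in octants, against 9.23, 3.60 and 6.89 CPM in zygotes (3.50 ± 0.34, edgeR adjusted p = 0.00325). JAZ1 had 56.6, 55.3, 47.2 and 51.0 CPM in octants, against 4.37, 7.07 and 15.3 CPM in zygotes (2.72 ± 0.47, edgeR adjusted p = 0.00697). JAZ6 had 69.9, 59.5, 23.5 and 18.5 CPM in octants, against 8.27, 4.61 and 7.88 CPM in zygotes (2.23 ± 0.39, edgeR adjusted p = 0.00726). The groups were apart for all 3 genes, and octants of Col-0 x Tsu-1 were the higher ones. Among 23 genes of jasmonate and wound response, a list that holds JAZ genes too, 10 rose and 2 fell. The median of the fitted changes was -0.26, while the medians within the crosses were 1.13 in Col-0 x Tsu-1 and 0.32 in Tsu-1 x Col-0. In both crosses 11 were higher and 5 were lower in octants. LOX2, a lipoxygenase of jasmonate synthesis, had 36.9, 32.3, 7.79 and 6.83 CPM in octants, against 48.5, 90.6 and 79.6 CPM in zygotes (-2.50 ± 0.67, edgeR adjusted p = 0.0265), and its call was lost without any 1 of the 4 Tsu-1 x Col-0 libraries. The risen JAZ count was 5 without any 1 octant library, and 2 were fallen without the Col-0 x Tsu-1 zygote library. In auxin signalling, AUX/IAA repressors had 4 risen and 2 fallen of 28 (median -0.52). Their share risen, 14.3%, was near the 15.7% of all genes tested, and their share fallen, 7.14%, was below 17.0%. Auxin response factors had 4 risen and 1 fallen of 16 (median 0.38). IAA1 had 29.3, 29.9, 26.6 and 27.7 CPM in octants, against 11, 3.65 and 2.63 CPM in zygotes. Its groups did not overlap (2.36 ± 0.42, edgeR adjusted p = 0.0074).

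Genes of DNA methylation and small RNA pathways had 7 risen and 1 fallen of 17 (median 1.05), and Argonautes 3 risen and 0 fallen of 9 (0 were lower at an unadjusted p under 0.05 or by DESeq2; median 0.92). AGO4, the Argonaute of RNA-directed DNA methylation, had 125, 120, 128 and 111 CPM in octants, against 18.3, 12.5 and 24.7 CPM in zygotes. The octants were alike and far above the zygotes (2.71 ± 0.34, edgeR adjusted p = 0.00377). AGO9, a relative known from the ovule, had 51.0, 51.8, 43.5 and 36.7 CPM in octants, against 12.8, 7.16 and 9.30 CPM in zygotes, also without overlap (2.17 ± 0.26, edgeR adjusted p = 0.00372). CMT3, the methyltransferase of CHG sites, had 42.5, 43.8, 45.0 and 40.7 CPM in octants, against 22.4, 9.18 and 17.2 CPM in zygotes (1.39 ± 0.33, edgeR adjusted p = 0.0171, lost without either Tsu-1 x Col-0 octant library). DCL3, the dicer of the same pathway as AGO4, was the fallen gene, with 5.87, 6.61, 5.41 and 5.17 CPM in octants, against 19.1, 11.2 and 9.19 CPM in zygotes (-1.23 ± 0.28, edgeR adjusted p = 0.016, lost without any 1 octant library). Of 8 polycomb genes 2 rose and 0 fell (0 were lower at an unadjusted p under 0.05 or by DESeq2); SWN, a histone methyltransferase, had 45.3, 31.3, 39.8 and 36.0 CPM in octants, against 14.5, 14.4 and 10.4 CPM in zygotes (1.53 ± 0.28, edgeR adjusted p = 0.00823). The methylation list had 3 risen genes without either Tsu-1 x Col-0 octant library.

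**Figure D3:**
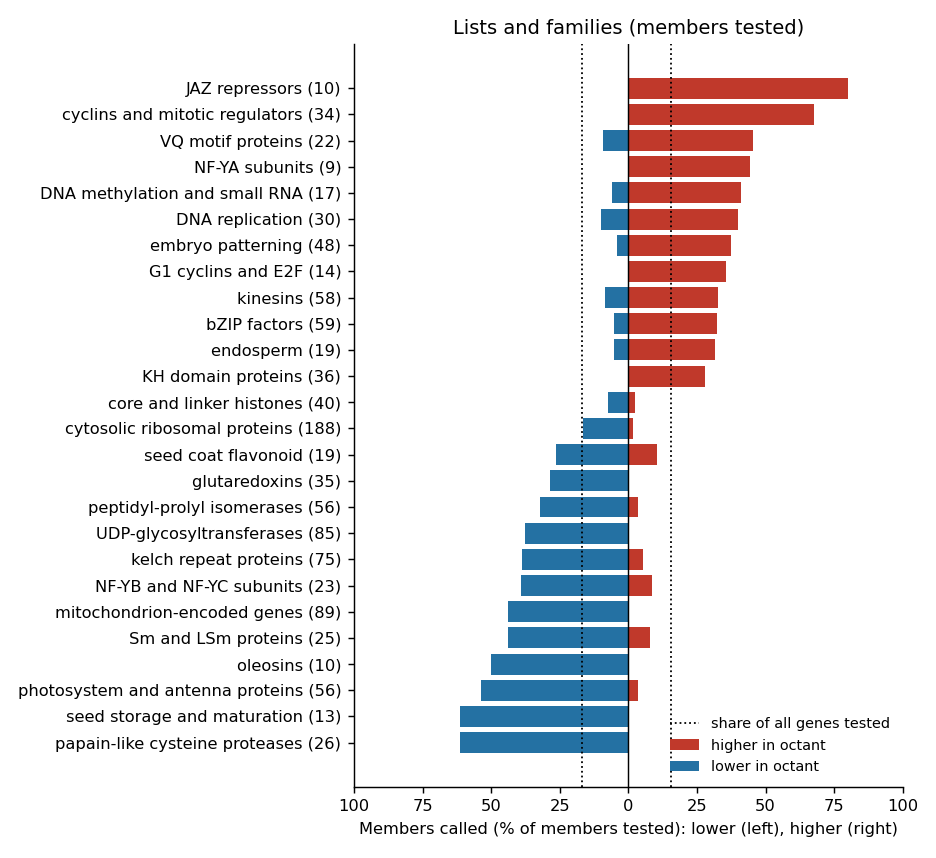
Share of the tested members of each list that rose or fell in octants. Bars run right for the percentage risen and left for the percentage fallen, and the dotted lines give the shares over all genes tested (15.7% and 17.0%). JAZ repressors, cyclins and mitotic regulators stand at the risen end and papain-like proteases and seed storage genes at the fallen end.

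Several families of enzymes had many fallen members. Papain-like cysteine proteases, enzymes of vacuolar protein breakdown and of programmed cell death, had 0 risen and 16 fallen of 26 (1 was higher at an unadjusted p under 0.05 and 1 by DESeq2), with a median of -1.71. AT4G11320 had 34.8, 31.9, 7.87 and 5.08 CPM in octants, against 181, 199 and 76.7 CPM in zygotes (-3.68 ± 0.57, edgeR adjusted p = 0.00547). AT4G16190 had 40.6, 29.8, 26.4 and 32.8 CPM in octants, against 125, 403 and 146 CPM in zygotes (-2.7 ± 0.49, edgeR adjusted p = 0.00825). AT2G21430 fell by 2.37 on the log2 scale. Groups did not overlap for these proteases. Without the second Tsu-1 x Col-0 octant library 7 members were fallen, and without the Col-0 x Tsu-1 zygote library 3 were risen.

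UDP-glycosyltransferases, which add sugars to hormones and secondary metabolites, had 0 risen and 32 fallen of 85 (5 were higher at an unadjusted p under 0.05 and 2 by DESeq2; median -1.27). UGT84A1, which glucosylates hydroxycinnamic acids, had 108, 117, 36.2 and 22.2 CPM in octants, against 818, 488 and 201 CPM in zygotes (-3.29 ± 0.44, edgeR adjusted p = 0.00409). IAGLU, which glucosylates the auxin indole-3-acetate, had 26.5, 24.7, 15.3 and 12.2 CPM in octants, against 130, 238 and 70.7 CPM in zygotes (-3.05 ± 0.49, edgeR adjusted p = 0.00608). UGT71B1 fell by 2.77 on the log2 scale. These 3 genes were lower in every octant library than in any zygote. The fallen count was 19 without the first Tsu-1 x Col-0 octant library, and without the Col-0 x Tsu-1 zygote library 38 were fallen and 14 risen.

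Kelch repeat proteins, many of them F-box adaptors of ubiquitin ligases, had 4 risen and 29 fallen of 75 (median -1.2), while F-box proteins as a whole had 41 and 62 of 311 (median -0.06). FKF1, the blue-light receptor of photoperiodic flowering, had 19.7, 17.8, 2.54 and 3.41 CPM in octants, against 62.9, 72.5 and 39.6 CPM in zygotes (-3.32 ± 0.59, edgeR adjusted p = 0.00764). SKIP6 had 17.5, 16.9, 18.0 and 15.7 CPM in octants, against 103, 268 and 69.4 CPM in zygotes (-3.04 ± 0.49, edgeR adjusted p = 0.00587). Neither gene's groups overlapped, and octants of the crosses were alike for SKIP6 and unlike for FKF1. The F-box gene DAF1 fell by 3.84 on the log2 scale. Kelch members fallen numbered 13 without the first Tsu-1 x Col-0 octant library, and 14 were risen without the Col-0 x Tsu-1 zygote library.

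Genes of plastids fell in part. Nuclear and plastid genes of the photosystems and their antennae had 2 risen and 30 fallen of 56 (median -1.43). PSBP-1, of the oxygen-evolving complex, had 15.2, 14.4, 16.1 and 22.3 CPM in octants, against 45.9, 443 and 366 CPM in zygotes (-3.45 ± 0.64, edgeR adjusted p = 0.00848). PSAN, of photosystem I, had 10.6, 9.38, 10.7 and 10.6 CPM in octants, against 28.1, 229 and 239 CPM in zygotes (-3.45 ± 0.66, edgeR adjusted p = 0.00926). Groups were apart for both, and the zygote of Col-0 x Tsu-1 was by far the lowest of the zygotes. Chloroplast-encoded genes had 25 risen and 25 fallen of 115 (median 0.33), with ATCG01020 at 141, 191, 131 and 177 CPM in octants, against 3.81, 0.703 and 7.11 CPM in zygotes (5.39 ± 0.79, edgeR adjusted p = 0.00483) and ATCG01210 at 8.71, 11.9, 9.22 and 8.21 CPM in octants, against 123, 37.0 and 38.1 CPM in zygotes (-2.73 ± 0.36, edgeR adjusted p = 0.00409). ATCG01210 and another chloroplast gene, ATCG00920, had near-equal mean log2 CPM, 5.68 and 5.7 in zygotes and 3.12 and 3.14 in octants. How reads with several positions were shared is not given, so the count of ATCG01210 is uncertain. Fallen photosystem genes numbered 13 without either Tsu-1 x Col-0 octant library and 43 without the Col-0 x Tsu-1 zygote library.

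Mitochondrion-encoded genes had 0 risen and 39 fallen of 89 (0 were higher at an unadjusted p under 0.05 or by DESeq2; median -1.71), with medians of -2.23 in Col-0 x Tsu-1 and -0.84 in Tsu-1 x Col-0. ATMG01080 had 8.24, 7.03, 2.15 and 1.94 CPM in octants, against 115, 76.7 and 113 CPM in zygotes (-4.89 ± 0.44, edgeR adjusted p = 0.00295), and ATMG00030 had 20.7, 14.0, 1.83 and 1.38 CPM in octants, against 448, 38.7 and 50.8 CPM in zygotes (-4.75 ± 0.32, edgeR adjusted p = 0.00295). All zygote libraries were above all octants for both genes. Organelle transcripts mostly lack long polyA tails, and these libraries were made from polyA RNA, so their counts may not follow the RNA in the cell. Without either Tsu-1 x Col-0 octant library 23 were fallen, and without the Col-0 x Tsu-1 zygote library 29 were fallen and 10 risen. Nuclear genes of the mitochondrial inner membrane translocases had 3 risen and 9 fallen of 26: TIM23-1 had 95.8, 79.4, 130 and 106 CPM in octants, against 857, 1020 and 349 CPM in zygotes (-2.85 ± 0.45, edgeR adjusted p = 0.00565), while AT3G25120 rose by 2.15 ± 0.34. Pentatricopeptide repeat proteins, which process organelle RNA, had 32 risen and 85 fallen of 430 (7.44% and 19.8% beside 15.7% and 17.0%), and AT2G20710 fell by 2.98 on the log2 scale.

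In 3 families of RNA and protein handling more members fell than rose, though most did not pass the test. Sm and LSm proteins, the rings of the spliceosomal snRNPs, had 2 risen and 11 fallen of 25 (median -1.14, with -0.22 in Col-0 x Tsu-1 and -1.93 in Tsu-1 x Col-0), and for 16 the change differed between crosses. Their median transcript was 767 bases. All genes of 750 to 1000 bases whose mean log2 CPM was 3 or more had medians of -0.07 and -1.13 in the same order. The part of length in this fall was not tested. The SmD1 gene AT3G07590 had 18.4, 18.5, 16.8 and 15.0 CPM in octants, against 165, 260 and 177 CPM in zygotes (-3.54 ± 0.31, edgeR adjusted p = 0.00295). In contrast smB had 285, 276, 283 and 280 CPM in octants, against 59.3, 17.7 and 18.7 CPM in zygotes (3.22 ± 0.45, edgeR adjusted p = 0.00433). Octant libraries were almost equal for each gene and lay on opposite sides of the zygotes. SmD3 fell by 2.58 on the log2 scale. Peptidyl-prolyl isomerases had 2 risen and 18 fallen of 56 (median -0.80), with FKBP15-2 at 117, 125, 107 and 102 CPM in octants, against 578, 1070 and 690 CPM in zygotes (-2.76 ± 0.36, edgeR adjusted p = 0.00409). Glutaredoxins, which reduce disulfides with glutathione, had 0 risen and 10 fallen of 35 (2 were higher at an unadjusted p under 0.05 and 1 by DESeq2; median -0.77), with AT4G10630 at 24.0, 24.9, 47.5 and 43.4 CPM in octants, against 289, 637 and 95.2 CPM in zygotes (-3.24 ± 0.59, edgeR adjusted p = 0.00828). With 1 library left out, the fallen counts ran from 3 to 19 for Sm and LSm proteins, 8 to 31 for isomerases and 2 to 16 for glutaredoxins; the lowest came without Tsu-1 x Col-0 octant libraries and the highest without the Col-0 x Tsu-1 zygote library, when 9 isomerases and 5 glutaredoxins were risen.

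Cytosolic ribosomal proteins had 3 risen and 31 fallen of 188 (1.6% and 16.5%, median -0.86). The share fallen was near the 17.0% of all genes tested, and the share risen was below their 15.7%. The crosses were on opposite sides of 0, with a median change of 0.43 in Col-0 x Tsu-1 and -1.47 in Tsu-1 x Col-0, and for 121 of these genes the change differed between crosses. Their transcripts are short, the class that was low in Tsu-1 x Col-0; with the offset for transcript length 20 were risen and 23 fallen. Without either Tsu-1 x Col-0 octant library 6 were fallen, and without the Col-0 x Tsu-1 zygote library 136 were. The 60S acidic ribosomal protein gene AT4G00810 had 404, 375, 308 and 254 CPM in octants, against 779, 5970 and 3160 CPM in zygotes (-3.02 ± 0.77, edgeR adjusted p = 0.0225, lost without either Tsu-1 x Col-0 octant library). The genes of ribosome biogenesis had 0 risen and 0 fallen of 6 by edgeR (2 were higher and 1 lower at an unadjusted p under 0.05, and likewise by DESeq2).

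Seed storage and maturation genes, known for their height in late embryos, had 0 risen and 8 fallen of 13 (0 were higher at an unadjusted p under 0.05 or by DESeq2; median -2.59), and oleosins, the coat proteins of oil bodies, 0 risen and 5 fallen of 10 (1 was higher at an unadjusted p under 0.05 and 1 by DESeq2; median -2.19). OLEO2 had 42.5, 39.1, 10.3 and 7.94 CPM in octants, against 568, 35.1 and 26.7 CPM in zygotes (-2.65 ± 0.46, edgeR adjusted p = 0.00734). OLEO4 had 15.3, 10.9, 5.17 and 3.41 CPM in octants, against 498, 32.3 and 19.3 CPM in zygotes (-3.77 ± 0.61, edgeR adjusted p = 0.00613). The albumin gene SESA3 had 11.6, 11.2, 5.09 and 3.32 CPM in octants, against 114, 13.2 and 21.9 CPM in zygotes (-2.60 ± 0.37, edgeR adjusted p = 0.0046). For all 3 genes the Col-0 x Tsu-1 zygote library held by far the most; the octants of that cross lay above the other zygotes for OLEO2 and below them for OLEO4 and SESA3. Without the Col-0 x Tsu-1 zygote library 6 of the storage genes and 5 oleosins were fallen, and 1 and 2 were risen.

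Families of metabolism and the cell wall had members in both directions, beside 15.7% risen and 17.0% fallen over all genes tested. In the families listed next the share risen was 9.38% to 11.8%, except in expansins, where it was above that of all genes. The share fallen was 20.4% to 29.4%, except in aquaporins (7.14%). The distance of these shares from those of all genes was not tested. Cytochromes P450 had 17 risen and 30 fallen of 147, glutathione S-transferases 5 and 11 of 53, pectinesterases and their inhibitors 9 and 22 of 96, expansins 7 and 6 of 28, aquaporins 3 and 2 of 28, and heat shock 70 proteins 2 and 5 of 17. BR6OX2, an oxidase of brassinosteroid synthesis, had 49.3, 26.7, 12 and 14.9 CPM in octants, against 2.71, 3.65 and 2.95 CPM in zygotes (2.7 ± 0.50, edgeR adjusted p = 0.00845). The expansin EXPA21 had 24.6, 32.7, 282 and 333 CPM in octants, against 1.6, 12 and 14.4 CPM in zygotes (4.39 ± 0.33, edgeR adjusted p = 0.00295). Both were apart from the zygotes, with opposite orders of the crosses in octants. GSTF8 rose by 2.75 ± 0.41, and the inhibitor-domain gene AT5G20740 fell by 3.32 on the log2 scale.

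Among genes whose mean log2 CPM was 5 or more, the risen gene with the largest log2 fold change was chloroplast-encoded, ATCG01130, with 3100, 3110, 6940 and 8440 CPM in octants, against 401, 71.0 and 81.4 CPM in zygotes (5.01 ± 0.97, edgeR adjusted p = 0.00951). MEE26 had 905, 695, 2120 and 2440 CPM in octants, against 111, 25.2 and 45.2 CPM in zygotes (4.62 ± 0.83, edgeR adjusted p = 0.00786). OXS2, a zinc finger protein of the oxidative stress response, had 186, 246, 249 and 245 CPM in octants, against 17.6, 9.23 and 3.83 CPM in zygotes (4.54 ± 0.55, edgeR adjusted p = 0.00372). The groups were far apart for these genes. EBF1, the F-box protein that targets EIN3 in ethylene signalling, had 404, 420, 561 and 679 CPM in octants, against 95.8, 10.9 and 11.4 CPM in zygotes (4.15 ± 0.88, edgeR adjusted p = 0.0125, lost without the first Tsu-1 x Col-0 zygote library). GH9B9, a glycosyl hydrolase, had 353, 227, 1490 and 1800 CPM in octants, against 44.9, 35.5 and 68.7 CPM in zygotes (3.99 ± 0.66, edgeR adjusted p = 0.00627). AT1G01630, a Sec14-like lipid transfer protein, rose by 3.93 ± 0.33 and AT2G20210 by 3.90 ± 0.55.

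Of the fallen genes at that level, AT1G12080, annotated as a vacuolar calcium-binding protein, had the largest change: it had 24.5, 15.8, 3.26 and 2.40 CPM in octants, against 144, 1570 and 772 CPM in zygotes (-7.14 ± 1.49, edgeR adjusted p = 0.0121). The copper chaperone gene ATX1 (AT1G66240) had 48.3, 72.0, 28.9 and 21.9 CPM in octants, against 170, 1680 and 591 CPM in zygotes (-4.26 ± 1.03, edgeR adjusted p = 0.0188). The epsilon chain gene of ATP synthase AT1G51650 had 294, 347, 272 and 232 CPM in octants, against 900, 11500 and 5500 CPM in zygotes (-3.94 ± 0.93, edgeR adjusted p = 0.0174). For these 3 genes no library of the groups overlapped, the Tsu-1 x Col-0 zygotes were the highest, and the call was lost without either Tsu-1 x Col-0 octant library. AT5G05370, a subunit of the cytochrome b-c1 complex, had 84.0, 97.6, 42.0 and 64.7 CPM in octants, against 544, 2230 and 1020 CPM in zygotes (-4.11 ± 0.66, edgeR adjusted p = 0.00587). AT4G10330, a glycine-rich protein, had 18.8, 18.5, 22.4 and 19.1 CPM in octants, against 278, 432 and 186 CPM in zygotes (-3.90 ± 0.37, edgeR adjusted p = 0.00325), and both crosses moved alike for it (-3.89 in Col-0 x Tsu-1 and -3.77 in Tsu-1 x Col-0).

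**Figure D4:**
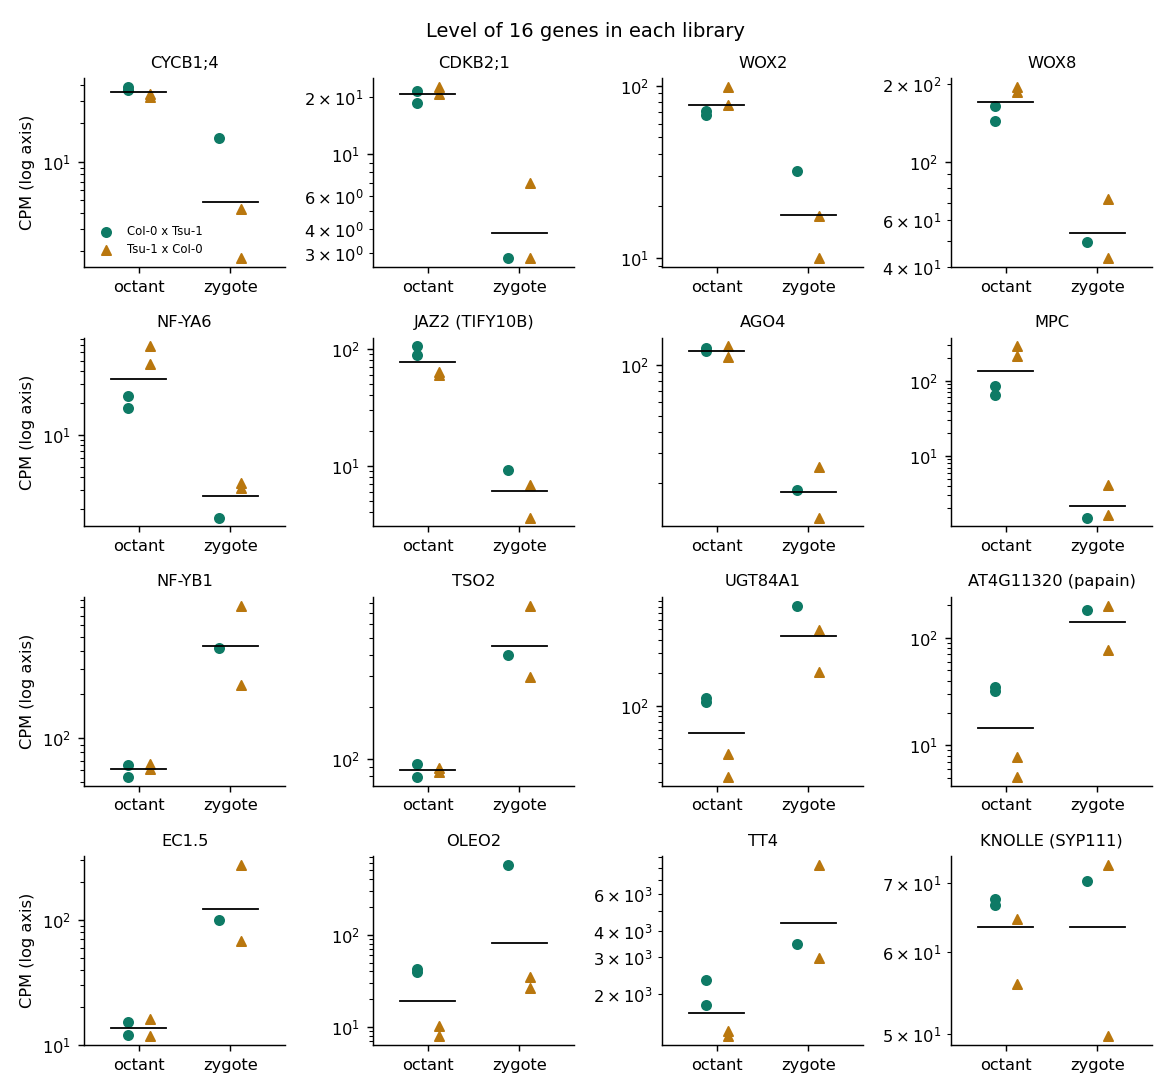
Level of 16 genes in each library. The vertical axes give CPM on a log scale, with octant libraries left of zygote libraries and the cross marked by colour; the horizontal line is the geometric mean of a stage. CYCB1;4, CDKB2;1, WOX2, WOX8, NF-YA6, JAZ2, AGO4 and MPC are higher in every octant library, NF-YB1, TSO2, UGT84A1, AT4G11320 and EC1.5 are lower, and KNOLLE overlaps.

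Markers of the egg cell and of the tissues around the embryo were measured beside these groups. The summed level of 4 egg cell genes was 21.2 to 26.1 CPM in octants and 72.8 to 278 CPM in zygotes, with 1 of 4 fallen and 0 risen (1 was higher at an unadjusted p under 0.05 and 1 by DESeq2), while the median change was 1.06 and 3 of 4 were higher in octants of both crosses. EC1.5, a peptide the egg cell secretes at fertilisation, was the fallen one and made up most of the zygote sums, with 15.2, 12.1, 11.7 and 16.2 CPM in octants, against 99.0, 275 and 68.1 CPM in zygotes, without overlap (-3.32 ± 0.51, edgeR adjusted p = 0.00535). Synergid and central cell genes summed to 0.477 to 0.782 CPM in octants and 0.132 to 2.98 CPM in zygotes, with 1 of 2 fallen, 1 of 2 at 0 in each octant and each Tsu-1 x Col-0 zygote library, and 0 risen (1 was higher at an unadjusted p under 0.05 and 0 by DESeq2). Pollen and sperm genes summed to 7.96 to 24.0 CPM in octants and 8.92 to 60.9 CPM in zygotes, with 0 of 6 changed at an adjusted or unadjusted p under 0.05 or by DESeq2.

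Genes of the flavonoid pathway that mark the seed coat summed to 3820 to 6000 CPM in octants and 7080 to 14800 CPM in zygotes, so that they were present in every library. Their sum was lower in all octants on the TMM scale, whose factors differed by stage, and the members did not all fall. Of 19, 2 rose and 5 fell (median -0.71). TT4, chalcone synthase, had 2340, 1770, 1260 and 1340 CPM in octants, against 3450, 8230 and 2960 CPM in zygotes (-1.6 ± 0.56, edgeR adjusted p = 0.0603), and BAN, which makes the precursors of condensed tannin in the inner seed coat layer, had 491, 448, 436 and 516 CPM in octants, against 154, 647 and 450 CPM in zygotes (0.45 ± 0.48, edgeR adjusted p = 0.485). TT4 was lower in every octant library and BAN overlapped. The WRKY factor TTG2, which acts in the seed coat, had 32.3, 23.1, 28.3 and 20.7 CPM in octants, against 2.90, 1.76 and 3.61 CPM in zygotes (3.23 ± 0.37, edgeR adjusted p = 0.00366), and TT1 rose by 1.67 ± 0.33, while TT7 fell by 1.61 and TT12 by 1.37 on the log2 scale (TT7 not without either Tsu-1 x Col-0 octant library and TT12 not without the second). Integument and ovule identity genes summed to 378 to 612 CPM in octants and 340 to 755 CPM in zygotes; BEL1 fell, 0 of 8 rose (1 was higher at an unadjusted p under 0.05 and 1 by DESeq2). Fallen seed coat genes numbered 0 without the second Tsu-1 x Col-0 octant library and 11 without the Col-0 x Tsu-1 zygote library.

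Endosperm genes summed to 136, 159, 326 and 410 CPM in octants, against 57.4, 98.0 and 97.1 CPM in zygotes, and 6 of 19 rose and 1 fell (median 0.65). MPC, a maternally expressed imprinted gene of the endosperm, had 64.0, 85.5, 213 and 286 CPM in octants, against 1.51, 1.63 and 4.16 CPM in zygotes, without overlap (6.11 ± 0.51, edgeR adjusted p = 0.00295). AGL62, which delays endosperm cellularisation, had 3.79, 3.77, 6.52 and 7.11 CPM in octants, against 11.4, 0.967 and 1.2 CPM in zygotes (0.65 ± 0.89, edgeR adjusted p = 0.592). PHE1, a paternally expressed MADS gene, had 10.2, 14.3, 30 and 41.2 CPM in octants, against 1.46, 21.4 and 28.2 CPM in zygotes (1.39 ± 0.58, edgeR adjusted p = 0.0969). Both overlapped. On the TMM scale endosperm sums were higher in every octant library and seed coat sums lower. MPC alone made up 64.0, 85.5, 213 and 286 CPM of the octant endosperm sums, so these sums do not show a rise of endosperm genes in general. The part of either tissue in the groups described above was not tested. The risen endosperm count ran from 4, without any 1 octant library or the first Tsu-1 x Col-0 zygote library, to 10 without the Col-0 x Tsu-1 zygote library.

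The authors' read counts at variants between the strains give a maternal fraction per gene, pooled over the libraries of a cross and stage, with no replicate error. Among genes with at least 10 such reads in both crosses, the median maternal fraction in octants was 0.751 in Col-0 x Tsu-1 and 0.676 in Tsu-1 x Col-0 over 1639 risen genes, 0.809 and 0.725 over 1472 fallen genes, and 0.779 and 0.695 over 5803 genes not called. Lists differed more than these classes. In octants seed coat genes had medians of 0.992 and 0.993 (12 genes), jasmonate and wound genes 0.989 and 0.939 (14), JAZ repressors 0.950 and 0.887 (6), and UDP-glycosyltransferases 0.922 and 0.899 (26). Mitotic genes had 0.627 and 0.558 (18), genes of DNA replication 0.684 and 0.595 (15), and embryo patterning genes 0.609 and 0.519 (30). JAZ6 had 0.990 and 0.999, close to the seed coat genes, while WOX2 had 0.449 and 0.526.

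The same variants show how far the stages differ within each class. Over 1041 risen genes with reads at both stages, the median difference of octant minus zygote was -0.00598 in Col-0 x Tsu-1 and -0.129 in Tsu-1 x Col-0, and over 1367 fallen genes it was -0.00149 and -0.119. Genes not called had -0.00608 and -0.126. The maternal fraction was thus lower in octants of Tsu-1 x Col-0 by a similar amount whether the gene's level rose, fell or was not called, while in Col-0 x Tsu-1 the medians lay near 0 in each class.

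Levels in the other stages of the series were set beside these groups. The octant and zygote levels of the called genes follow from the call, and their median log2 CPM in other stages was 2.75 in ovules and 3.26 in globular embryos for risen genes and 3.52 and 3.06 for fallen genes. Cyclins and mitotic regulators stood at 4.02 in ovules, 2.52 in zygotes, 3.85 in octants, 4.40 in globular and 4.90 in heart embryos. Embryo patterning genes had 1.80 in ovules, 2.78 in zygotes, 4.06 in octants, 4.90 in globular and 1.6 in mature embryos. JAZ repressors peaked in octants, at 4.32 against 2.57 in zygotes, 2.83 in ovules and 2.20 in globular embryos, and VQ proteins did too, at 2.08 against 0.53, 0.03 and 0.48. Papain-like proteases had 3.65, 4.09, 3.21 and 1.46 from ovule to globular embryo. Photosystem genes had 5.26 in zygotes, 4.02 in octants and 7.83 in torpedo embryos. Mature embryos held the highest median of the storage genes, 15.42, against 1.34 in octants and 3.25 in zygotes. These are medians over genes of mean levels over libraries, a description with no test.

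**Figure D5:**
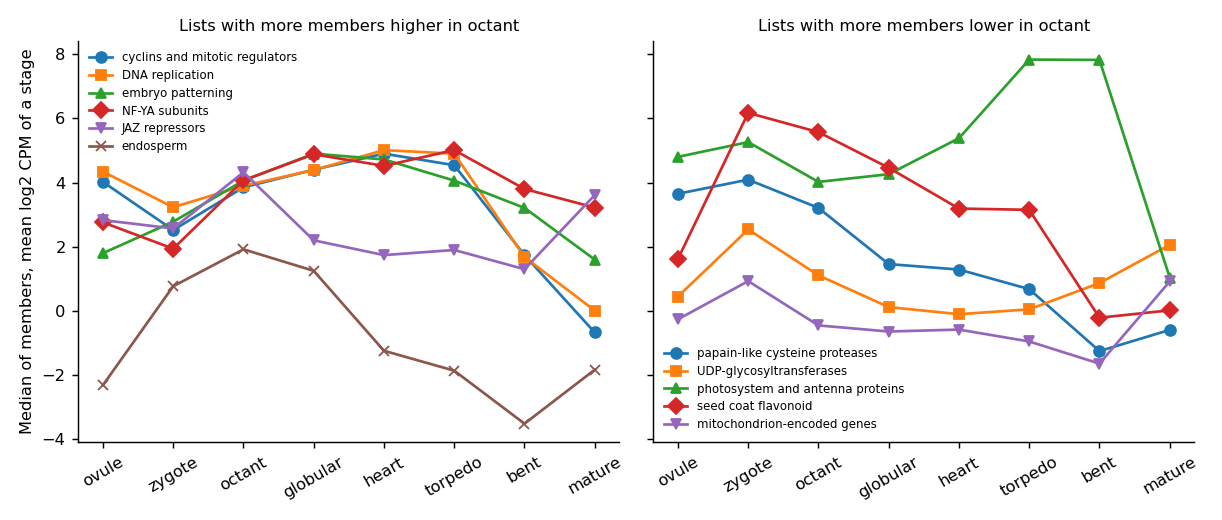
Median level of gene lists over development. The vertical axis is the median over a list's genes of log2 CPM averaged over the libraries of a stage, and the horizontal axis gives the stages from ovule to mature embryo. Mitotic and patterning genes are higher in octants than in zygotes, and papain-like proteases are lower and go on to 1.46 in globular embryos.

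The genes whose change differed most between crosses were few in kind. AT3G41768 and AT2G01010 are annotated as ribosomal RNA genes and share near-identical copies, so their counts are uncertain. AT3G41768 had 431, 508, 465 and 371 CPM in octants, against 2530, 29.5 and 26.7 CPM in zygotes, and AT2G01010 had 298, 332, 289 and 215 CPM in octants, against 1990, 25.3 and 22.7 CPM in zygotes. Octants agreed for both genes, while the Col-0 x Tsu-1 zygote was far above and the other zygotes far below. AT5G38160, annotated as a lipid-transfer protein, had 28.6, 30.9, 5.80 and 7.66 CPM in octants, against 14.0, 489 and 389 CPM in zygotes, the opposite order (edgeR adjusted p = 0.000151 for the stage by cross term).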

How the data were processed

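The authors deposited a table of expected counts (not all whole numbers) per gene and library; per the submitters' processing notes, STAR 2.7.0d, featureCounts 1.6.0 and the TAIR10 genome were used. How reads with several positions were shared is not given in the sources used here. The authors also deposited maternal fractions per gene and stage, pooled per cross, and counts of variant reads behind each. Counts were rounded to whole numbers, filtered with filterByExpr by stage and cross, scaled with TMM and tested with edgeR 4.0.16 (R 4.3.3; quasi-likelihood test, stage plus cross, Benjamini-Hochberg adjusted p under 0.05, two-sided); DESeq2 1.42.0 was an alternative. The Col-0 x Tsu-1 zygote group has 1 library, so its spread is taken from the other groups. The scripts were tested on simulated counts with known changes. These were drawn with the spread fitted to each gene in the libraries compared and with no difference between crosses. The shares recovered in this setting need not hold for the real counts. Of 200 genes changed 4-fold, 34 were recovered (17%), with 2 false calls. At 16-fold, 198 of 200 were recovered, with 13 false calls. A gene that was not called may therefore still differ between the stages. Standard errors (SE) come from the fold change and its F value.

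The members, gene lists, families and tests were chosen with earlier results of these data known. Lists came from textbook roles, families from the domain names of the RefSeq annotation of TAIR10.1, which matched 33055 of 33341 gene IDs. Named genes are drawn from the 12 largest changes in each direction whose mean log2 CPM was 5 or more and whose groups did not overlap, from up to 3 changed members per list and direction whose mean log2 CPM was 3 or more, from key genes of the lists, and from the 3 genes with the largest difference between crosses; CYCB1;2, CYCB2;2, MCM6 and ORC3 were chosen afterwards among risen genes for the matches in their windows, and a gene that the rule names is not reported here. Alternatives were RLE scaling, no filter, DESeq2, no cross term, a replicate block, each cross alone, all 29 libraries and leaving out each library. The labels call the libraries of a group biological replicates.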

Additional observations from a re-analysis of the deposited data

Results flagged for a closer look

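A library stood apart from the other octants of its gene in 4 cases, on the log2 CPM scale: MCM2 at 4.35 in the second Tsu-1 x Col-0 library, PSAN at 3.24 and OXS2 at 7.54 in the second and first Col-0 x Tsu-1 libraries, and SCL13 at 5.37 in the second Tsu-1 x Col-0 library. Chance flags about 1 in 20 groups of libraries in this way.

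For other named genes the log2 change of octant over zygote differed between crosses (edgeR stage by cross term, adjusted p under 0.05, passed by 35.9% of all genes tested). Given as Col-0 x Tsu-1 minus Tsu-1 x Col-0, a negative difference means that the octant of Tsu-1 x Col-0 stood higher relative to its zygotes. Among genes of division and patterning this difference was -2.26 for CYCB1;4, 1.70 for PCNA2, -3.98 for PHB, -2.65 for PIN7, -2.18 for FUS3, -1.57 for WOX2 and 1.64 for ACR4 (CR4). Among regulators it was -2.0 for AHBP-1B, -2.25 for WRKY17, -4.07 for NAM, 4.43 for MYB16, -1.78 for MYB94, -1.66 for IAA1, -2.13 for iqd2, -4.71 for AT4G26480 and -3.52 for PEP. It was 3.05 for LOX2, 2.49 for FKF1, 1.80 for BR6OX2, -3.70 for EBF1, -2.29 for GH9B9 and -3.18 for MEE26.

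Photosystem genes PSBP-1 and PSAN had differences of 2.76 and 2.96, the splicing genes smB and SmD3 -1.71 and 1.67, the ribosomal gene AT4G00810 3.02, and the oleosins OLEO2 and OLEO4 -2.04 and -2.66. Among markers of seed tissues the difference was 1.81 for BAN, -4.28 for AGL62 and 2.54 for PHE1. Of the genes with the largest falls, AT1G12080 had 5.85, ATX1 (AT1G66240) 3.98, AT1G51650 3.59 and AT5G05370 2.35. Organelle genes had 1.62 for ATMG01080, -3.70 for ATCG01130 and -1.46 for ATCG01210. The ribosomal RNA genes AT3G41768 and AT2G01010 had -6.33 and -6.05 and the lipid-transfer gene AT5G38160 had 7.11. Only 1 zygote library stands for Col-0 x Tsu-1, so the cross and that library cannot be told apart in these differences.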

How the results depend on the processing

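The 7154 calls were 7221 with RLE scaling, 7297 without a filter on low counts, 9604 with DESeq2, 6408 without the cross and 7083 with the length offset, which was chosen after seeing the data. The counts moved by over 1.5 times to 12128 with the spread taken from all 29 libraries, 11003 in Tsu-1 x Col-0 alone, 14587 in Col-0 x Tsu-1 alone (also chosen after seeing the data, with a lone zygote assumed to vary like the octants) and 4284 with the replicate number as a block. Same-numbered Tsu-1 x Col-0 libraries of the stages did not deviate together (r = -0.025 over 11191 genes), so the numbers do not pair them; 4281 of those 4284 block calls were shared. Leaving out 1 library gave 2878 to 12698 calls and, for the difference between crosses (7869), 4309 to 12533, the low ones without any 1 octant library and the high ones without either Tsu-1 x Col-0 zygote library; without the Col-0 x Tsu-1 zygote library that difference could not be fitted. The cause of these shifts was not tested. PIN7, not called, turned to 1.02 in Tsu-1 x Col-0 alone and ran from -0.59 to 0.98 with 1 library left out, and in Col-0 x Tsu-1 alone AGL62 turned to -1.59, AT3G41768 to -2.43, AT2G01010 to -2.65 and AT5G38160 to 1.09. Over all named genes and alternatives, 1441 values kept their side of the threshold with no called value changing sign, 76 lost the call and 32 gained it. How depth bears on the calls was not tested.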

Other observations

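Domains with at least 20 tested members, listed with their counts in view and therefore with no test, add further groups. The chlorophyll a/b binding proteins among them overlap with the antenna genes counted above. Jumonji domain factors, among them histone demethylases, had 8 risen and 4 fallen of 20 (median 1.09), phospholipid and glycerol acyltransferases 9 and 5 of 21 (1.1), transmembrane amino acid transporters 12 and 3 of 39 (0.80) and RING-CH ubiquitin ligases 10 and 4 of 25 (0.77). On the other side, GCN5-related acetyltransferases had 3 risen and 13 fallen of 31 (-0.45), isopenicillin N synthase-like oxygenases 1 and 8 of 22 (-1.14), CBL-interacting protein kinases 1 and 9 of 26 (0.01) and chlorophyll a/b binding proteins 2 and 12 of 22 (-1.21).

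The storage genes of the zygote libraries also differed in parental origin. In Tsu-1 x Col-0 the median maternal fraction of 9 oleosins was 0.427 in octants (8 genes) and 0.0879 in zygotes, and in Col-0 x Tsu-1 it was 0.548 and 0.578. For OLEO2 the fraction in Tsu-1 x Col-0 was 0.392 of 144 variant reads in octants and 0.121 of 490 in zygotes, and in Col-0 x Tsu-1 it was 0.496 of 686 and 0.570 of 15700. Genes of all 3 classes of change had medians of 0.86 or more in those zygotes, while oleosin reads in the Tsu-1 x Col-0 zygotes were mostly of the father's strain, Col-0. Other genes had low fractions there too, among them AT5G38160 at 0.0482 of 11400 reads, RGL3 at 0.0903 of 26 and NF-YA3 at 0.216 of 157. These fractions are pooled over libraries by the authors and have no replicate error.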
